A study of Mus musculus and Rattus norvegicus with 11 samples.

Results

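Transcripts of 10 mouse genes that build, load or switch on MHC class II molecules were followed across the cell types of peripheral nerve. The genes were H2-Aa, H2-Ab1, H2-Eb1, Cd74, H2-DMa, H2-DMb1, H2-DMb2, H2-Ob, Ciita and Ctss. They were chosen by name, and all 10 were found among the 31053 genes of the mouse table. In the rat table of 32883 genes only Cd74, Ciita and Ctss carry the same symbols. Their levels were compared between professional antigen presenting cells and cells of the nerve itself, and between the mouse groups within a cell type.

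The mouse groups were 3 libraries of NOD mice labelled as lacking ICAM-1, 3 libraries of NOD controls and 3 libraries of undiseased C57BL/6 mice. The first group is called NOD-ICAM here, after its library titles. Per the labels the NOD groups serve the study of chronic autoimmune neuritis, and both share the NOD background, an inbred strain prone to autoimmunity. Mouse cells were taken from the sciatic nerve and the brachial plexus, by perfusion, enzymatic digestion, myelin depletion and a sort for live cells. A further 2 libraries came from naive Lewis rats, whose sciatic nerve cells were taken from a density gradient without sorting. The sources used here do not give age, sex, disease stage or the number of animals per library. Since nothing says that libraries of a group came from separate animals, p-values measure only the spread between these libraries, which may be technical.

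MHC class II molecules carry peptides from the endosomes to the cell surface, where CD4 T cells read them. H2-Aa and H2-Ab1 encode the chains of the mouse I-A molecule and H2-Eb1 the beta chain of I-E, whose alpha chain gene is defective in both NOD and C57BL/6. Cd74, the invariant chain, guides new class II molecules to the endosome and fills their groove. Cathepsin S, from Ctss, makes the late cuts in the invariant chain. H2-DM, a pair of H2-DMa with H2-DMb1 or H2-DMb2, then exchanges the remaining fragment for peptide, and H2-O, which contains H2-Ob, restrains H2-DM. Ciita is the transactivator that most class II genes need. B cells, macrophages and dendritic cells make these genes constitutively, and Schwann and endothelial cells can be induced to make them by interferon gamma.

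In the mm10 annotation 7 of the genes lie in the MHC on chromosome 17, between H2-DMa at chr17:34119541-34139101 and H2-Eb1 at chr17:34305867-34316674. H2-DMb2 (chr17:34143307-34151555) and H2-DMb1 (chr17:34153072-34160230) are neighbours on the plus strand, followed by H2-Ob (chr17:34238903-34254414) and H2-Ab1 (chr17:34257689-34269419). H2-Aa (chr17:34282744-34287823) is the one on the minus strand. Ciita (chr16:10480059-10528418) and Ctss (chr3:95526786-95556403) lie elsewhere, both on the plus strand.

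Class II promoters share a module with an X box, bound by the RFX complex, and a Y box, bound by NF-Y, on which Ciita acts. RefSeq promoters of build GRCm38.p6 (250 bases before to 50 after a start) were available for 7 of the 10 genes. The letters ATTGG, the core of the Y box, stood on the given strand in 6 of these 7, all but Ctss, and in 22.1% of 32841 mouse promoters. On either strand the same 6 genes and 37.4% of promoters held them. AGCAAC, used for the X box core, stood in H2-Eb1 and H2-Ob, and in 7.73% of promoters on the given strand or 14.8% on either. The longer TGATTGG, which contains ATTGG and was searched after the first result was seen, stood in 5 of the 7 and in 4.01% of promoters on the given strand or 7.82% on either. Each of these counts describes letters in a window and not a bound site. Below are 60 bases around the ATTGG of those 5 genes, shown because H2-DMb1 and H2-DMb2 split by cell type in the results, and H2-Aa, H2-Eb1 and H2-Ob differed in where they were called. Capitals mark ATTGG and AGCAAC.
H2-Aa (minus strand, chr17:34287857-34287916): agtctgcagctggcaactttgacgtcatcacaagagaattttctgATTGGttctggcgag
H2-DMb1 (plus strand, chr17:34153085-34153144): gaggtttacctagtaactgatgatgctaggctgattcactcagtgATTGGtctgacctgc
H2-DMb2 (plus strand, chr17:34145114-34145173): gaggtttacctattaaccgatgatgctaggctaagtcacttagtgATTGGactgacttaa
H2-Eb1 (plus strand, chr17:34305763-34305822): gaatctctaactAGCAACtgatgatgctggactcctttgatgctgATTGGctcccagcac
H2-Ob (plus strand, chr17:34238803-34238862): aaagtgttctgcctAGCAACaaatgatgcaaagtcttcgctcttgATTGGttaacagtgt
The first base of ATTGG lay 48 bases before the RefSeq start in H2-Aa, 61 in H2-DMb1, 90 in H2-DMb2, 59 in H2-Eb1 and 57 in H2-Ob. In H2-DMa it lay 198 bases before the RefSeq start. The RefSeq starts of H2-DMa, H2-DMb1 and H2-DMb2 lie inside the gene coordinates given above, which come from another annotation.

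Libraries held 400 to 3800 barcodes in mouse and 571042 to 6631004 UMIs, the molecule counts of droplet sequencing, with 6500 and 6000 barcodes in rat. Levels are given as CPM, the count of a gene scaled to the total UMIs of a cell type in a library, using the deposited cell type names and only types with at least 20 cells. Icam1 transcripts, which the label names as lost, measured 248, 262 and 255 CPM over all cells of NOD-ICAM, against 94.5, 44.4 and 56.0 CPM in NOD control and 81.8, 88.1 and 48.0 CPM in C57BL/6. The Icam1 level thus goes against the label, and reads of a transcript end say nothing of a deletion elsewhere in the gene. Leukocytes were 91.48% to 91.85% of cells in NOD-ICAM, 8.86% to 34.06% in NOD control and 7.50% to 49.62% in C57BL/6. NOD control libraries 2-1 and 2-2 were summed as NOD control 2 unless stated, which leaves 2 control samples. Between mouse libraries at most 15 barcodes were shared. Cells named nmSC carried fibroblast genes (Dcn, Lum, Col1a1, Pdgfra, Sfrp2 and Pi16 summed to 39850 to 87450 CPM) and little of the Schwann list (328 to 1341 CPM), so they are called by the deposited name only.

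Professional cells stood far above nerve cells in every library. Cd74 (chr18:60803848-60812652, plus strand) reached 49120, 48630 and 45520 CPM in B cells (BC) of NOD-ICAM, 37960 and 29830 CPM in those of NOD control 2-1 and 2-2, and 16730, 41820 and 40010 CPM in those of C57BL/6. Myeloid cells (MC) held 57920, 52840 and 57430 CPM in NOD-ICAM and 43960 and 37610 CPM in NOD control 1 and 2. C57BL/6 macrophages (MP) held 39610, 54440 and 42600 CPM. NOD-ICAM lay above NOD control in both BC and MC with no overlap, while the C57BL/6 range overlapped that of NOD control in BC and those of both NOD groups in MP against MC. How many of all genes did not overlap was not counted, and the Cd74 difference in MC did not pass the test given below (edgeR adjusted p = 0.18). B cells of C57BL/6 library 1 and the 20 plasmacytoid dendritic cells (pDC) of NOD-ICAM 2, at 23570 CPM, were the low ones. The 24 cells named MC in C57BL/6 library 3 were lower still, at 7017 CPM, and had 41650 CPM of Lyz2, a lysozyme gene of monocytes and neutrophils. In NOD-ICAM libraries the Cd74 level of BC and MC was 11.4 to 34.0 times that of the nerve type with most Cd74. The deposited types may have been made with these genes, so levels between types are a description with no test.

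**Figure D1:**
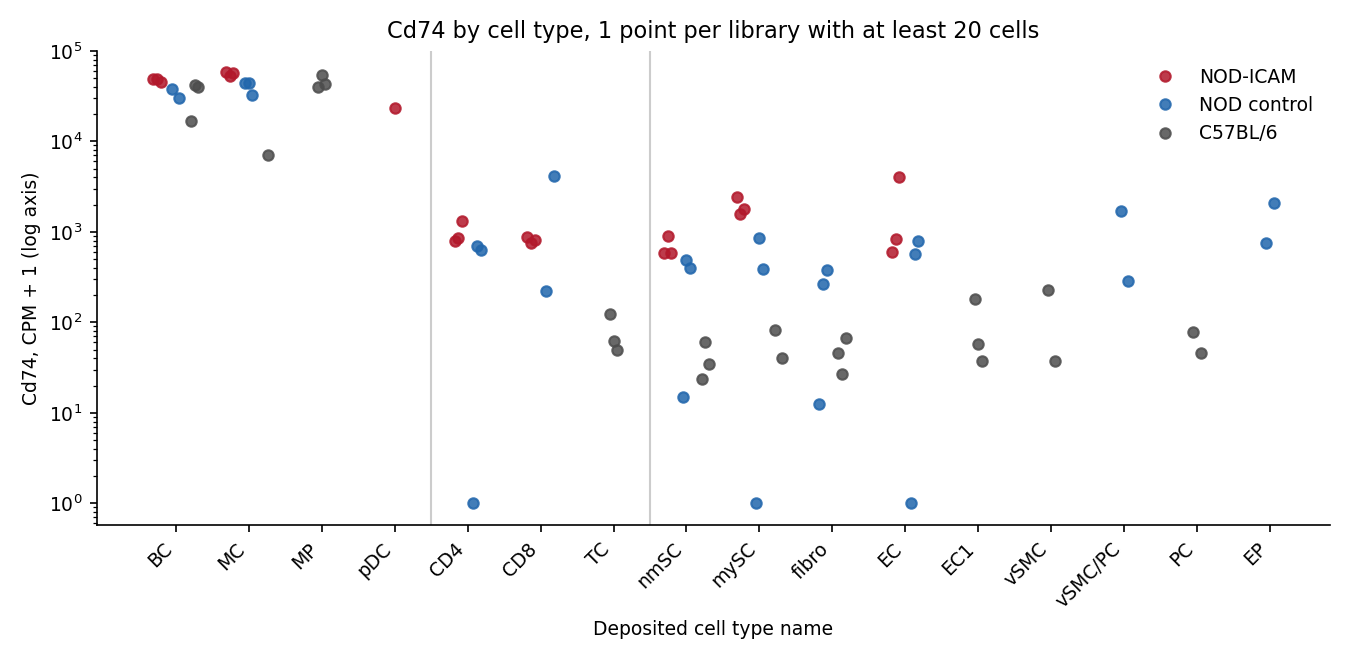
Cd74 in CPM + 1 on a log axis for each deposited cell type, with 1 point per library of at least 20 cells, in NOD-ICAM (red), NOD control (blue) and C57BL/6 (grey). Professional types on the left lie at 7017 CPM or higher, while T cells and nerve types to their right lie at 4141 CPM or lower.

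The chains of I-A and I-E followed the same order of cell types. H2-Aa measured 13870, 13370 and 14260 CPM in MC of NOD-ICAM, against 9189 and 8142 CPM in MC of NOD control. H2-Ab1 measured 12830, 14320 and 14490 CPM in MC of NOD-ICAM, against 11060 and 9337 CPM in NOD control. H2-Eb1 measured 5977, 5988 and 7017 CPM in MC of NOD-ICAM, against 5866 and 4815 CPM in NOD control. H2-Aa kept the groups furthest apart.

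The partners of H2-DM split by cell type. H2-DMb2 made up 80.94%, 80.85% and 80.64% of H2-DMb UMIs in B cells of NOD-ICAM, 80.7% and 79.79% in those of NOD control 2-1 and 2-2, and 77.55%, 85.71% and 92.86% in those of C57BL/6. In MC it made up 26.37%, 29.94% and 25.36% in NOD-ICAM, and 18.25%, 28.32% and 15.91% in NOD control 1, 2-1 and 2-2. C57BL/6 macrophages had 6.41%, 23.06% and 17.91%. No myeloid value reached a B cell value in these libraries, so H2-DMb2 was the main partner in B cells and H2-DMb1 in myeloid cells. The transcripts of both genes were 66.0% identical over the last 300 bases, from which the counted reads come. Whether any reads were placed on the wrong copy was not tested.

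H2-Ob was highest in B cells and Ctss in myeloid cells, and Ciita was low everywhere. H2-Ob measured 401, 376 and 393 CPM in B cells of NOD-ICAM, 495 and 441 CPM in those of NOD control 2-1 and 2-2, and 325, 556 and 683 CPM in those of C57BL/6. In MC it stayed between 0 and 43.3 CPM in every library, and the highest value outside professional cells was 76.9 CPM, in EP cells of NOD control 2-2. Ciita ranged from 86.7 to 107 CPM in B cells of NOD-ICAM and from 60.1 to 75.7 CPM in MC of NOD-ICAM, and no nerve type of any mouse library passed 13.5 CPM. Ctss measured 3776, 3575 and 3735 CPM in MC of NOD-ICAM, 1127 and 1074 CPM in MC of NOD control, and 587, 1473 and 1684 CPM in C57BL/6 macrophages. Nerve types had at most 80.9 CPM of Ctss.

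**Figure D2:**
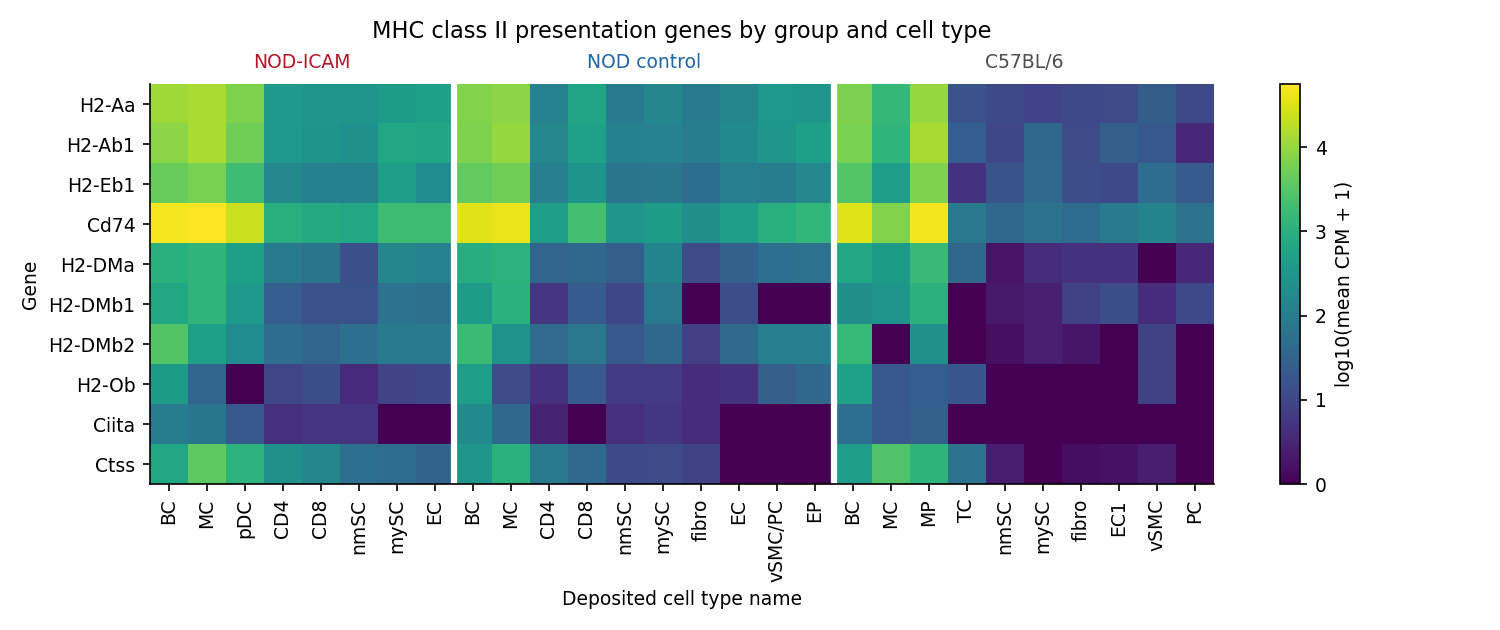
Mean level of each of the 10 genes, as log10(mean CPM + 1), in each deposited cell type of NOD-ICAM, NOD control and C57BL/6, over libraries with at least 20 cells. Read along a row, every gene is brightest in professional types, with H2-Ob brightest in B cells and Ctss in myeloid cells.

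Myelinating Schwann cells of C57BL/6 held class II transcripts at about the level of T cells of the same library. Cd74 measured 80.6 and 38.8 CPM in myelinating Schwann cells (mySC) of libraries 1 and 3, and 22.7, 59.6 and 34.0 CPM in nmSC of libraries 1, 3 and 4. Mouse T cells do not normally make class II, so their level is given as the background of a library. T cells (TC) of those 3 libraries had 123, 61.7 and 49.0 CPM. The sum of H2-Aa, H2-Ab1, H2-Eb1 and Cd74 in mySC was 1.20 times (exact 95% interval 0.34 to 3.47) the TC sum in library 1 and 1.01 times (0.50 to 2.18) in library 3. In nmSC it was 0.36 times (0.13 to 0.90) the TC sum in library 1, 1.14 times (0.64 to 2.25) in library 3 and 0.53 times (0.15 to 1.59) in library 4. Expression of these genes in mySC of healthy C57BL/6 above that background was not detectable at this depth.

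NOD libraries with many leukocytes held more of these transcripts in nerve cells and in T cells alike. This did not extend to C57BL/6 library 4, with 49.62% leukocytes, where the 4-gene sum was 106 CPM in TC and 56.6 CPM in nmSC. Whether leukocyte content sets the level was not tested. The 4-gene sum measured 3986, 3289 and 3156 CPM in mySC of NOD-ICAM, against 1526, 1631 and 2420 CPM in CD4 T cells of the same libraries. The ratio was 2.61 (2.30 to 2.96), 2.02 (1.68 to 2.40) and 1.30 (1.13 to 1.49), above 1 in all 3 libraries by counting error. In NOD control 2-1 and 2-2 the sum was 1449 and 851 CPM in mySC, against 1216 and 1365 CPM in CD4 cells, with ratios of 1.19 (0.98 to 1.45) and 0.62 (0.52 to 0.74). In nmSC the ratio to CD4 cells was 0.82, 0.97 and 0.50 in NOD-ICAM and 0.74 and 0.58 in NOD control 2-1 and 2-2, so each value was below 1, within counting error of 1 in NOD-ICAM 2. Endothelial cells (EC) had ratios of 0.77, 0.97 and 2.75 in NOD-ICAM, where library 3 stood apart, and of 0.96 and 1.11 in NOD control 2-1 and 2-2. NOD control 1, with 8.86% leukocytes, had 0 UMIs of the 4 genes in its 20 mySC and 0 in its 39 CD4 cells, with exact upper bounds of 282 and 181 CPM. Few cells can set such a level: the 23 CD8 cells of NOD control 2-2 held 4141 CPM of Cd74, of which 105 of 110 UMIs lay in 2 cells that also carried B cell UMIs. The other CD8 cells there held 276 CPM, beside 221 CPM in the 22 of 2-1. All intervals here reflect counting error alone.

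**Figure D3:**
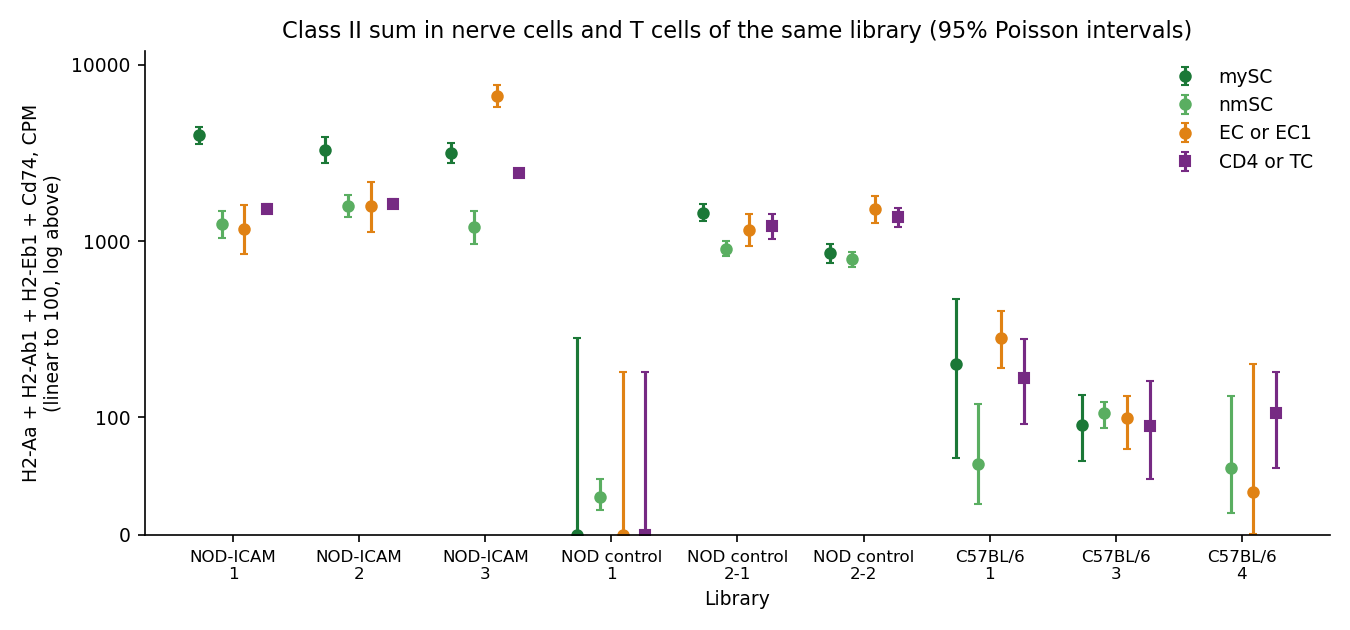
Summed CPM of H2-Aa, H2-Ab1, H2-Eb1 and Cd74 in mySC, nmSC, EC or EC1 (circles) and CD4 or TC (squares) of each mouse library, with exact 95% Poisson intervals, on an axis linear to 100 and log above. In NOD-ICAM the mySC circle lies above the square in all 3 libraries, and the EC circle lies above it in library 3 only.

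To ask whether class II genes differ within a nerve cell type, summed counts of NOD-ICAM and NOD control were compared with edgeR's quasi-likelihood test across all genes that passed a filter on low counts, with 3 and 2 samples. In mySC 3 of the 5 genes that passed the filter rose. The filter asks for enough counts in as many samples as the smaller group holds. NOD control 1 held 0 UMIs of these 3 genes, so they could pass it only with NOD-ICAM samples. That 3 of 5 rose was thus partly set by the filter. H2-Ab1 measured 742, 800 and 584 CPM in NOD-ICAM, against 0 and 191 CPM in NOD control 1 and 2. H2-Eb1 measured 465, 548 and 351 CPM in NOD-ICAM, against 0 and 108 CPM in NOD control. Cd74 measured 2414, 1553 and 1766 CPM in NOD-ICAM, against 0 and 572 CPM in NOD control. In all 3 genes every NOD-ICAM library lay above both controls, and the share of all genes with that order was not counted.

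The log2 fold changes in mySC were 1.73 ± 0.37 (SE) for H2-Ab1 (edgeR adjusted p = 0.0027), 1.85 ± 0.39 for H2-Eb1 (adjusted p = 0.0021) and 1.74 ± 0.39 for Cd74 (adjusted p = 0.0041). Over all 1711 genes tested there, 11.4% were called and 5.61% were called higher. H2-Aa, at 365, 388 and 455 CPM in NOD-ICAM against 0 and 223 CPM in NOD control, did not pass (log2 0.73 ± 0.38, edgeR adjusted p = 0.26). H2-DMa did not pass either, at 176, 91.4 and 208 CPM in NOD-ICAM against 76.4 and 166 CPM in NOD control. NOD control 1 entered with 20 cells, and NOD-ICAM with 46, 28 and 50. Without NOD-ICAM library 3 the calls of H2-Ab1 and Cd74 were lost (edgeR adjusted p = 0.064 and 0.14), with DESeq2 those of H2-Eb1 and Cd74 (adjusted p = 0.084 and 0.65), and without NOD control 2 the log2 fold change of Cd74 moved to 9.71. Without NOD control 1 it was 1.45 and still called (edgeR adjusted p = 9.9e-11). With the NOD-ICAM libraries summed as 1 sample, H2-Ab1 and H2-Eb1 were no longer called (edgeR adjusted p = 0.12 and 0.13).

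T cell RNA moved with this result, while B cell and myeloid RNA lay near the level of NOD control 2. In mySC the summed T cell list (Cd3d, Cd3e, Cd3g, Cd2, Trac and Lck) measured 214, 480 and 390 CPM in NOD-ICAM, against 0 and 55.8 CPM in NOD control. The B cell list without Ebf1 measured 113, 91.4 and 117 CPM in NOD-ICAM and 0 and 91.8 CPM in NOD control. The myeloid list measured 88.0, 228 and 169 CPM in NOD-ICAM and 153 and 164 CPM in NOD control. Schwann genes of the same cells measured 13430, 10230 and 9649 CPM in NOD-ICAM, against 37420 and 53270 CPM in NOD control. With every cell that held a leukocyte marker UMI left out, Cd74 in mySC measured 583, 1653 and 1058 CPM in NOD-ICAM, against 0 CPM in NOD control 1 and 364.0 and 363.8 CPM in 2-1 and 2-2. The values of NOD-ICAM 2 and NOD control 1 then rest on 12 and 18 cells, under the limit of 20 used elsewhere. That filter removed 32.6%, 57.1% and 50% of the NOD-ICAM cells, and H2-Ab1 no longer passed (log2 1.40, edgeR adjusted p = 0.078).

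Most Cd74 UMIs in mySC of NOD-ICAM came from few cells. Of 124 cells, 10 held at least 10 Cd74 UMIs each, a limit set after the values were seen, and together they held 278 UMIs. All 10 carried a UMI of a Schwann gene, 7 a T cell UMI, 2 a B cell UMI and 1 a myeloid UMI, and a doublet caller marked 0 of them. Their median depths were 3568, 2663 and 3258 UMIs, against 1267, 1236 and 1067 UMIs over all mySC of those libraries. At such depth nearly any mySC would carry a Schwann UMI, and the shares among other mySC of like depth were not counted. Whether the 10 were single cells or mixed droplets was not tested. The other mySC measured 647, 806 and 700 CPM of Cd74, against 711, 700 and 956 CPM in the CD4 cells of the same libraries left after the same step. In NOD control 4 of 760 mySC held at least 10 Cd74 UMIs, with 124 UMIs in all. Those 4 each carried a B cell UMI and were each marked as doublets. In C57BL/6 0 of 405 mySC and 0 of 333 T cells reached 10 UMIs. The mySC of these groups were shallower, with medians of 534, 569.5 and 621.5 UMIs in NOD control 1, 2-1 and 2-2. In C57BL/6 libraries 1, 3 and 4 the medians were 500, 789 and 741 UMIs. A fixed limit in raw UMIs is harder to reach in shallow cells, so these counts of cells are not comparable between groups.

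**Figure D4:**
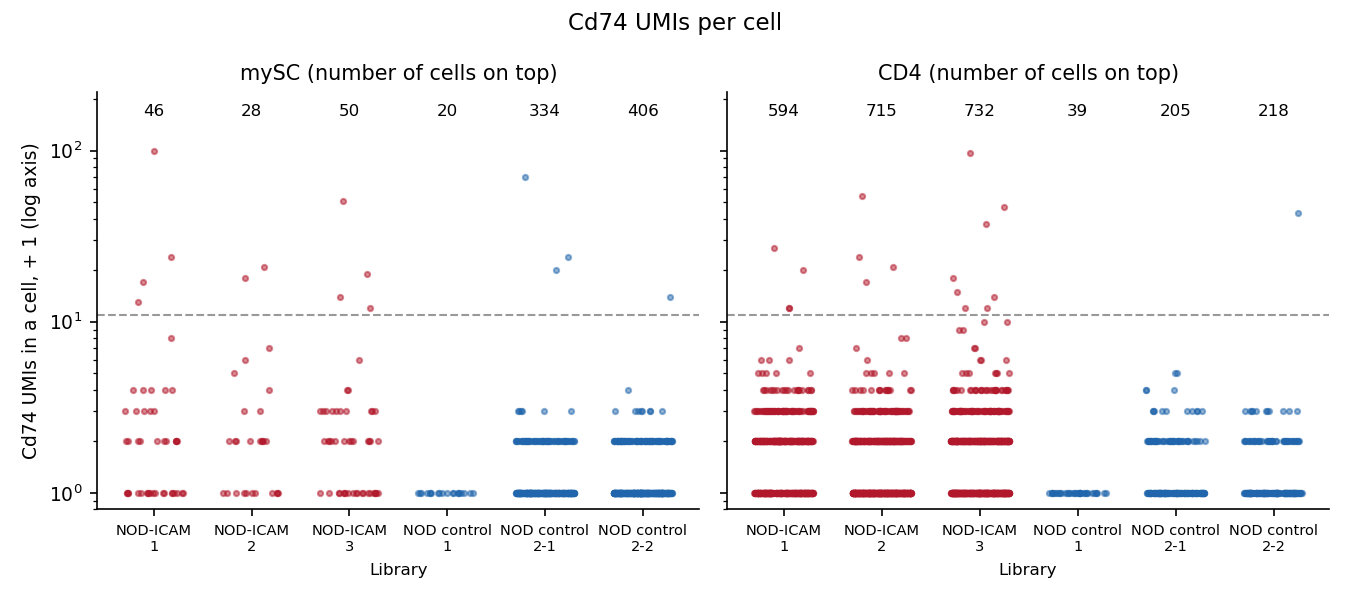
Cd74 UMIs in each mySC (left) and CD4 cell (right), plus 1 on a log axis, for the libraries of NOD-ICAM (red) and NOD control (blue), with the number of cells on top and a dashed line at 10 UMIs. In mySC of NOD-ICAM 10 of 124 cells lie on or above the line, against 4 of 760 in NOD control, whose mySC had fewer UMIs per cell.

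H2-DMa and H2-DMb1 behaved apart from Cd74 in mySC. Per 100 Cd74 UMIs, mySC of NOD control 2-1 and 2-2 held 23.4 (16.5 to 32.6) and 37.3 (26.1 to 52.5) H2-DMa UMIs. B cells of those libraries held 2.71 and 2.70, MC held 2.79 and 2.90, CD4 cells held 9.09 and 6.25, and nmSC held 6.31 and 11.4. The intervals of mySC lay above those of B cells and MC of the same library. For H2-DMb1 the values were 12 and 16.7 in mySC, against 1.22 and 1.27 in B cells and 2.05 and 3.16 in MC.

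These H2-DMa UMIs were spread over many cells. In NOD control 2-1, 45 UMIs fell in 34 of 334 mySC with at most 3 in a cell, and in 2-2, 47 UMIs fell in 35 of 406. As CPM, H2-DMa in mySC was 3.10 times (1.45 to 7.63) and 3.63 times (1.63 to 9.52) its level in CD4 cells of 2-1 and 2-2. With cells holding a leukocyte marker UMI left out, it still measured 177 and 131 CPM in mySC, against 198.7 and 143 CPM with all cells. In mySC of NOD-ICAM 7.29, 5.88 and 11.8 H2-DMa UMIs fell on each 100 of Cd74, close to the 11.7, 7.19 and 6.98 of the CD4 cells there. As CPM, H2-DMa in mySC of NOD-ICAM was 1.88 times (0.98 to 3.39), 1.47 times (0.38 to 4.06) and 2.26 times (1.21 to 3.97) its level in CD4 cells.

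In other nerve types of NOD-ICAM the test called none of the genes. In nmSC 4 genes passed the low count filter and 0 were called by edgeR (1 at an unadjusted p under 0.05, 0 by DESeq2), against 3.9% of all 2101 genes tested. Of those 2101 genes 419 had an unadjusted edgeR p under 0.05. Cd74 there measured 577, 895 and 579.9 CPM in NOD-ICAM, against 13.8 and 440 CPM in NOD control 1 and 2, so the controls were far apart. Without NOD control 1 or 2 some genes were called in nmSC, in fits left with 1 control sample. In EC 2 genes passed the filter and 0 were called by edgeR (2 unadjusted, 0 by DESeq2), against 2.6% of 538 genes. Of those 538 genes 96 had an unadjusted edgeR p under 0.05. Cd74 measured 601, 829 and 4007 CPM in EC of NOD-ICAM, against 0 and 683 CPM in NOD control. Of the 120 Cd74 UMIs in EC of NOD-ICAM 3, 90 lay in 4 of 30 cells. Among those 4 cells 0 carried a UMI of the myeloid list, which includes Lyz2, 2 carried a B cell UMI and 1 was marked as a doublet. That library also had the most Lyz2, 868 CPM against 172 and 78.9 CPM in NOD-ICAM 1 and 2. In EC, too, some genes were called without NOD control 1 or 2, again with 1 control sample left.

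The difference of these effects between cell types was tested on the same samples. H2-Eb1 rose more in mySC than in nmSC (difference of log2 fold changes 1.61 ± 0.52, edgeR adjusted p = 0.043) and more in mySC than in MC (1.64 ± 0.43, adjusted p = 0.008). These were the calls among 5 and 8 genes tested, where 4.73% and 3.01% of all genes were called, 2.06% and 2.35% in the positive direction. H2-Ab1 came near in both, with edgeR adjusted p of 0.056 and 0.053. For mySC against EC, 0 of 4 genes were called by edgeR (0 unadjusted, 0 by DESeq2), against 4.65% of all genes. Unadjusted, 142 of all 1076 genes were under 0.05 there. The 2 H2-Eb1 calls were lost with DESeq2 (adjusted p = 0.88 and 0.32) and without cells that held a leukocyte marker UMI (edgeR adjusted p = 0.8 and 0.78). They were also lost without NOD-ICAM library 1 (0.14 and 0.11), NOD-ICAM library 2 (0.38 and 0.099) or NOD control 2 (0.69 and 0.1), and the first without NOD-ICAM library 3 (0.057). Some genes were called for the differences from nmSC and MC without NOD control 1, and for mySC against MC without NOD control 2. Each of these fits was left with 1 control sample.

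In myeloid cells Ctss and H2-Aa rose. For Ctss, whose levels are given above, the log2 fold change in MC was 1.64 ± 0.19 (edgeR adjusted p = 3.1e-05). H2-Aa rose by 0.57 ± 0.17 (adjusted p = 0.034). The other 7 genes that passed the filter did not pass the test, among them Cd74 (log2 0.35, edgeR adjusted p = 0.18), H2-DMb2 (0.68, adjusted p = 0.072) and H2-DMa (0.03, adjusted p = 0.94). The median over the 9 genes was 0.35, against 0.01 over all 2981 genes tested, of which 16.3% were called and 8.55% were called higher. The call of H2-Aa was lost without any 1 NOD-ICAM library (edgeR adjusted p = 0.11 to 0.18), and more genes were called without NOD control 1, with 1 control sample left. MC differed in makeup too: Lyz2 measured 15830, 12750 and 13830 CPM in NOD-ICAM and 27690 and 21990 CPM in NOD control, and whether this carries the differences in class II genes was not tested.

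B cells gave the most calls, in both directions. NOD control 1 had too few B cells, so NOD control 2-1 and 2-2 were compared as separate samples with the 3 NOD-ICAM libraries. If 2-1 and 2-2 are runs of 1 sample, these p-values are too small. H2-Aa measured 12060, 11620 and 11510 CPM in B cells of NOD-ICAM, against 7163 and 6862 CPM in NOD control (log2 0.53 ± 0.08, edgeR adjusted p = 6.2e-05). Ctss, at 749, 597 and 686 CPM in NOD-ICAM against 319 and 335 CPM in NOD control, rose by 0.83 ± 0.17 (adjusted p = 0.0013). H2-DMb2 measured 2982, 2832 and 2657 CPM in NOD-ICAM, against 1929 and 1490 CPM in NOD control (log2 0.52 ± 0.13, edgeR adjusted p = 0.0049). None of these 3 genes overlapped between the groups, and how many of all genes did not overlap was not counted. Cd74 (log2 0.29 ± 0.06) and H2-DMb1 (0.47 ± 0.16) rose too, with edgeR adjusted p of 0.00097 and 0.044. The call of H2-DMb1 held in only 4 of 12 alternatives, with an adjusted p of up to 0.28.

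Ciita and H2-Ob fell in those B cells. Ciita measured 107, 86.7 and 99.6 CPM in NOD-ICAM, against 164 and 200.2 CPM in NOD control 2-1 and 2-2 (log2 -1.13 ± 0.20, edgeR adjusted p = 0.00021). It stayed past the threshold in 12 of 12 alternatives, with log2 values from -1.34 to -0.86. The transactivator was thus lower in the same cells in which H2-Aa and Cd74 were higher. H2-Ob fell by 0.47 ± 0.16 (edgeR adjusted p = 0.04), and 11 of 12 alternatives lost that call. H2-Ab1, H2-Eb1 and H2-DMa did not pass (edgeR adjusted p = 0.23, 0.58 and 0.95). Of all 4930 genes tested in B cells 20.5% were called, 8.84% higher and 11.6% lower. With 2-1 and 2-2 summed 5 of the 10 genes were called, and with the NOD-ICAM libraries summed 2, Ctss and Ciita. B cells of NOD control carried 1086 and 709 CPM of the Schwann list and 2407 and 1296 CPM of the fibroblast list, against 66.9 to 88.7 and 226 to 279.9 CPM in NOD-ICAM, and the part of that in the result was not tested.

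**Figure D5:**
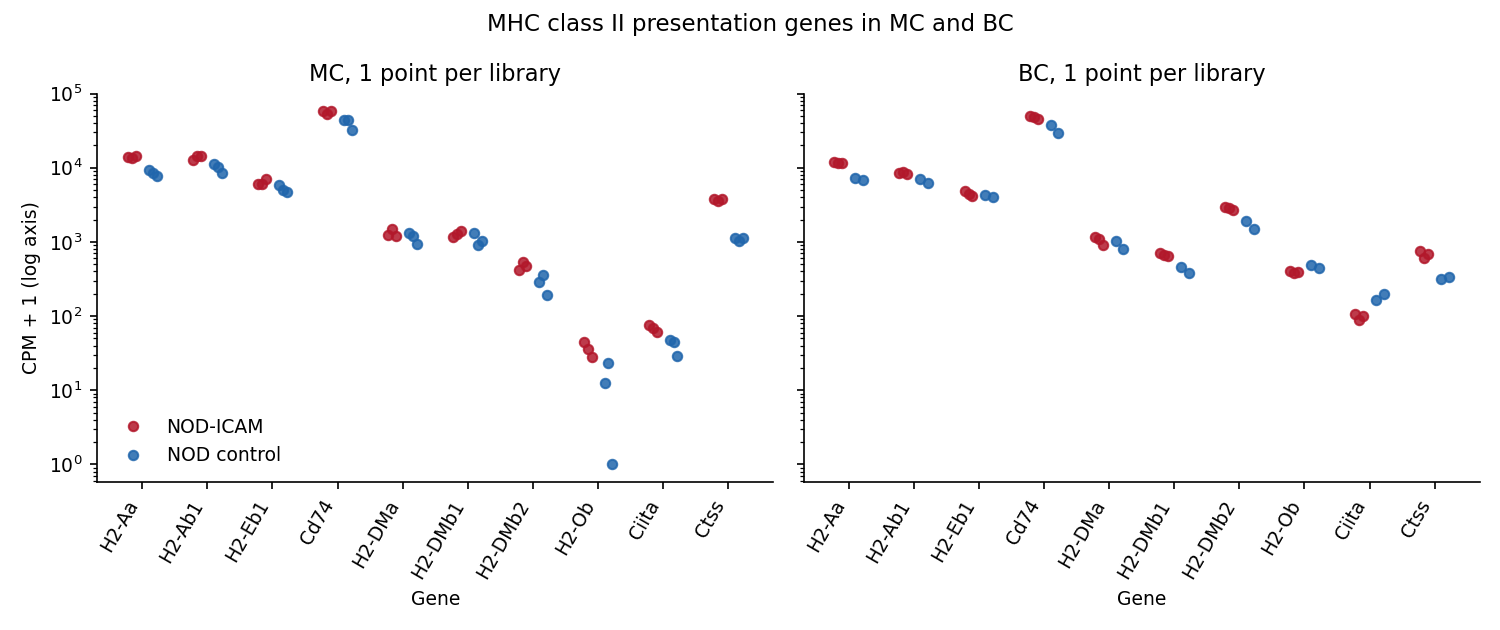
CPM + 1 on a log axis of the 10 genes in MC (left) and BC (right), with 1 point per library, in NOD-ICAM (red, left of each pair) and NOD control (blue). Ctss stands apart in both cell types, and Ciita lies lower in NOD-ICAM in BC and higher in MC, where its difference did not pass the test.

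CD4 cells, which served as the background level, also differed. Ctss measured 250.2, 218 and 266 CPM in NOD-ICAM, against 0 and 119 CPM in NOD control 1 and 2 (log2 1.00 ± 0.30, edgeR adjusted p = 0.012). H2-Aa measured 288, 317 and 453 CPM in NOD-ICAM, against 0 and 198 CPM in NOD control (log2 0.81 ± 0.27, edgeR adjusted p = 0.028). Of 8 genes tested 2 were called, and Cd74 came near with an adjusted p of 0.052, where 10.8% of all 6866 genes were called and 6.67% were called higher. With DESeq2 0 were called (1 at an unadjusted p under 0.05) and without NOD-ICAM library 3 only Ctss. More were called without NOD control 2, with 1 control sample left. NOD control 1 had only 39 CD4 cells, with 442 CPM of the T cell list against 3865 to 8090 CPM in the CD4 cells of the other NOD libraries. Those 39 cells held 0 UMIs of the class II genes, so these could pass the filter only with NOD-ICAM samples.

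Genes that act beside class II were counted from lists of loading and turnover (13 genes), transcriptional control and co-stimulation (6). In mySC of NOD-ICAM Irf1, an interferon regulatory factor that acts on Ciita, rose. It measured 327, 228 and 377 CPM in NOD-ICAM, against 153 and 73.8 CPM in NOD control (log2 1.75 ± 0.38, edgeR adjusted p = 0.0029). None of the 4 tested loading genes passed in mySC.

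In MC 2 of 9 loading genes rose, Cd83, which shields class II from turnover, and H2-Oa, the partner of H2-Ob. H2-Oa measured 64.9, 57.6 and 98.3 CPM in NOD-ICAM, against 0 and 5.04 CPM in NOD control. Among the control genes Irf8 (log2 1.35) rose, and of 4 co-stimulatory genes Cd86 (2.07) and Cd40 (1.77), with edgeR adjusted p of 0.0024, 0.00065 and 0.0073. These counts stand beside 16.3% of all genes called in MC. In B cells Cd83 rose and Ctsl fell among 10 loading genes, and Cd86 and Cd40 rose among 5 co-stimulatory genes. With 20.5% of all genes called in B cells, the loading count is near the background share. Cd83 measured 2291, 2285 and 2056 CPM in B cells of NOD-ICAM, against 646 and 561 CPM in NOD control (log2 1.67 ± 0.15, edgeR adjusted p = 2.5e-08). In CD4 cells Cd83 and Ctsb rose and Ctsl and Ctsz fell among 8 loading genes, and Socs1 rose among the control genes, where 10.8% of all genes were called. In MC the median log2 fold change was 0.31 over the loading list and 1.75 over the co-stimulation list, against 0.01 over all genes.

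NOD control and C57BL/6 differ in strain, MHC haplotype and possibly in batch, which cannot be told apart. In mySC all 4 genes that passed the filter were called higher in NOD control. Of all 3021 genes 6.85% were called and 3.87% were called higher. H2-DMa and H2-DMb1 passed the filter only through NOD control, with 1 UMI each in the 20 mySC of NOD control 1. That all 4 rose was thus partly set by the filter. H2-Aa and H2-Ab1, at 223 and 191 CPM in NOD control 2 against 16.2 and 38.8 CPM in C57BL/6 library 3, did not pass it. The NOD control samples held 93 H2-DMa UMIs and C57BL/6 libraries 1 and 3 held 2, a ratio per total UMIs of 27.3 (exact 95% interval 7.35 to 229). H2-DMb1 counted 45 against 1 (ratio 26.4, 4.51 to 1070) and H2-Eb1 60 against 2 (17.6, 4.67 to 149). H2-Eb1 measured 0 and 108 CPM in NOD control 1 and 2, against 80.6 and 0 CPM in C57BL/6 libraries 1 and 3. Its groups thus overlapped, and all 60 UMIs lay in NOD control 2. Cd74 measured 0 and 572 CPM in NOD control 1 and 2, against 80.6 and 38.8 CPM in C57BL/6. The edgeR adjusted p was 5.1e-05 for H2-DMa, 9.1e-05 for H2-DMb1, 5e-05 for H2-Eb1 and 6.2e-05 for Cd74.

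Those calls rest on few samples. C57BL/6 library 4 had 7 mySC and was left out of that fit, and its cells held 2 UMIs of H2-DMa and 2 of H2-DMb1, or 367 CPM each (exact 95% interval 44.5 to 1327). With that library added, the ratio of NOD control to C57BL/6 was 13.9 (5.24 to 52.0) for H2-DMa and 8.96 (2.88 to 45.1) for H2-DMb1, a step chosen after seeing the data. Without C57BL/6 library 1 the call of Cd74 was lost (edgeR adjusted p = 0.1). Without NOD control 2 none of the 10 genes passed the filter, and without C57BL/6 library 3 only Cd74 did, uncalled (edgeR adjusted p = 0.17). DESeq2 called 0 (1 at an unadjusted p under 0.05), with an adjusted p of 1.0 for Cd74 and none given for the other 3. NOD control 1 held 1 UMI each of H2-DMa and H2-DMb1 in 20 mySC. Leukocyte markers in mySC moved the same way, with 0 and 55.8 CPM of the T cell list and 0 and 91.8 CPM of the B cell list without Ebf1 in NOD control, against 0 and 3.23 CPM and 0 and 0 CPM in C57BL/6. With cells that held a leukocyte marker UMI left out, all 4 genes were still called.

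Elsewhere the strain comparison called 0 genes with edgeR and with DESeq2. In nmSC 4 genes were tested, and 2.28% of all genes were called. All 4 had an unadjusted edgeR p under 0.05, as did 806 of all 7691 genes. In fibro and EC 1 gene each was tested, Cd74, against 1.82% and 1.96% of all genes called. Its unadjusted p was under 0.05 in both, as it was for 497 of 4780 and 158 of 2091 genes. In MC 8 genes were tested, against 1.37% of all genes called, and in BC 10, against 6.99%. Unadjusted, 0 and 1 of these were under 0.05, beside 168 of 1677 and 188 of 973 of all genes. DESeq2 gave 0 at an unadjusted p under 0.05 in each. Without NOD control 1, whose nerve cells held little of these transcripts, some genes were called in nmSC, fibro and EC, in fits left with 1 NOD control sample. None of the 3 lists beside class II had a call in these comparisons.

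In rat the same 2 tiers appeared, with 2 libraries and no groups to compare. Cd74 measured 41740 and 35490 CPM in cells named MHC II APC, 19760 and 16080 CPM in B cells and 15550 and 15330 CPM in PF4 MC. Nerve types ranged from 699.6 to 883 CPM in library 1 and from 1007 to 1586 CPM in library 2, beside 804 and 1129 CPM in T cells. The level in nerve types thus followed the T cell level of its library. Ctss was highest in PF4 MC, at 337 and 325 CPM, against 129.9 and 129 CPM in MHC II APC. Ciita measured 7.38 and 14.2 CPM in MHC II APC, and at most 4.21 CPM in B cells. The chain genes RT1-Ba, RT1-Bb, RT1-Da and RT1-Db1 kept the same order of professional types, with RT1-Da at 17370 and 14090 CPM in MHC II APC, 10930 and 8803 CPM in B cells and 5273 and 5341 CPM in PF4 MC. RT1-DOb, the counterpart of H2-Ob, was instead highest in B cells, at 90.2 and 33.7 CPM, against 22.9 and 22.4 CPM in MHC II APC. RT1-DOa measured 190.4 and 122 CPM in B cells and 166 and 146.5 CPM in MHC II APC, and RT1-DMa did not pass 0.75 CPM in any type.

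Shares of cells with a Cd74 UMI were also taken, with each cell thinned to 500 UMIs. They set mySC above CD4 cells, as the 4-gene sums did, in NOD-ICAM 2 and 3, but not in NOD-ICAM 1 or NOD control 2-1. In mySC of NOD-ICAM 32.61%, 51.85% and 42.55% of cells held one (56.52%, 60.71% and 60% unthinned), against 34.18%, 29.52% and 38.48% of CD4 cells (57.91%, 44.76% and 53.42% unthinned). In NOD-ICAM 1, where the ratio of sums was largest, the mySC share was not above that of CD4 cells. Thinning left out 0, 1 and 3 of the mySC and 0, 7 and 33 of the CD4 cells, whose median depths were 1267, 1236 and 1067 UMIs in mySC and 1030, 831 and 765 UMIs in CD4 cells. In NOD control 2-1 and 2-2 the thinned shares were 19.32% and 19.5% in mySC and 32.43% and 18.46% in CD4 cells. The mySC share was thus below that of CD4 cells in 2-1 and within counting error of it in 2-2, where thinning left out 127 and 88 mySC and 94 and 23 CD4 cells. B cells held a Cd74 UMI in 99.4% to 100% of thinned cells in every mouse library.

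The genes whose pattern was most like the mean of H2-Aa, H2-Ab1, H2-Eb1 and Cd74, over 74 sums of a library and cell type and among 13735 genes, were Ly86 (Pearson r = 0.882), Napsa (0.879), Cybb (0.879), Pld4 (0.869) and Cd83 (0.856). Ncf1, Themis2, Cyp4f18, Lat2 and Fgd2 completed the 10, with r from 0.831 to 0.855. The sums share libraries, depth and leukocyte content, so r is a description. H2-DMa ranked next after the 4 genes themselves, followed by H2-DMb2, and Ctss and H2-DMb1 stood at ranks 11 and 12. Ciita stood at rank 29, with r = 0.795. H2-Ob was the least like, at rank 112 with r = 0.658.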

How the data were processed

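UMI counts of genes by barcode (10x 3′ chemistry, version 2) were deposited by the authors together with cell type names. Per the submitters' processing notes these were made with Cell Ranger 3.0.2 and the builds mm10 and Rnor_6.0. The sources used here do not say how cells were named or whether free RNA was corrected. Counts were summed per library and deposited type with Python 3.11.15 and scipy 1.17.1, for types with at least 20 cells. The quasi-likelihood test of edgeR 4.0.16 (R 4.3.3) was run on these sums after filterByExpr (min.count 10) and TMM scaling, with Benjamini-Hochberg adjustment over every gene tested and a threshold of 0.05, and was checked on simulated counts. Alternatives were RLE factors, DESeq2 1.42.0, no filter, other library sums, cells left out, 3 groups in 1 fit, a replicate block and each sample left out. The B cell fit departs from the plan, as NOD control 1 had 7 B cells. Scrublet (scanpy 1.11.5) marked 0.214% to 1.342% of barcodes as doublets. Marker lists were B, T, myeloid, Schwann and fibroblast genes. Coordinates come from the mm10 annotation and promoters from RefSeq. All 10 genes, and every called gene of the 3 lists up to 6 per comparison, were to be named, except 1 control gene that is not reported here; the members and lists were chosen with earlier results of these data known.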

Additional observations from a re-analysis of the deposited data

Results flagged for a closer look

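The effect of the NOD-ICAM label on H2-Eb1, the beta chain of I-E, differed between cell types in a test of the difference itself. It was larger in mySC than in nmSC by 1.61 (log2), and larger in mySC than in MC by 1.64. The mySC values were 465, 548 and 351 CPM in NOD-ICAM, against 0 and 108 CPM in NOD control, and the nmSC values 132, 91.2 and 135 CPM in NOD-ICAM, against 8.78 and 94.6 CPM in NOD control. In MC H2-Eb1 measured 5977, 5988 and 7017 CPM in NOD-ICAM, against 5866 and 4815 CPM in NOD control. The call held in 3 of 11 alternatives for mySC against nmSC and in 5 of 11 for mySC against MC. Both were lost with DESeq2 (adjusted p = 0.88 and 0.32) and without cells that held a leukocyte marker UMI (edgeR adjusted p = 0.8 and 0.78).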

How the results depend on the processing

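Direction and side of the threshold held in 365 of 492 alternative values of single genes; 67 lost a call, 50 gained one and 10 reversed. The count of class II genes called in NOD-ICAM against NOD control moved as follows. With DESeq2 it was 1 in mySC, 1 in MC, 0 in CD4 and 4 in BC, and with no filter on low counts it was 4 in nmSC and 1 in EC. With the 3 NOD-ICAM libraries summed it was 1 in mySC, 1 in EC, 1 in MC, 0 in CD4 and 2 in BC. With 3 mouse groups in 1 fit it was 1 in MC and 1 in BC, and without leukocyte marker cells 1 in mySC. For the difference between mySC and nmSC it was 3 with control libraries 2-1 and 2-2 separate, 3 without doublets, and 0 with RLE factors, DESeq2, no filter or leukocyte marker cells left out. For mySC against MC it was 3, 3 and, with DESeq2, no filter or those cells left out, 0. In NOD control against C57BL/6, no filter gave 6 in nmSC, 0 in mySC, 4 in fibro and 5 in EC, DESeq2 gave 0 in mySC, and separate control libraries gave 1 in EC. Leaving out 1 sample gave 0 to 4 calls in nmSC, 1 to 4 in mySC, 0 to 2 in EC, 1 to 4 in MC, 1 to 5 in CD4 and 5 to 6 in BC for NOD-ICAM, 0 to 6 in nmSC and mySC and 0 to 4 in fibro and EC for the strains, and 0 to 2 and 0 to 3 for mySC against nmSC and MC. Where that left 1 sample in an arm, it was assumed to vary like the others. The share of all genes called in each of these fits is not given here, so the counts cannot be read as a result about class II genes. H2-Eb1 in CD4 cells, at -0.15 (log2), reversed to 0.27 with DESeq2, 0.01 with no filter, 0.25 with the replicate block and 0.32 with NOD-ICAM summed. It ranged from -0.31 to 9.41 with 1 sample left out, above 0 without NOD-ICAM 1 (0.01) or NOD control 2. With 1 sample left out the strain values ranged from -0.81 to 2.52 for H2-Eb1 in nmSC and, for Cd74, from -1.87 to 3.04 in nmSC, -1.96 to 2.89 in fibro and -7.0 to 2.79 in EC, each negative without NOD control 2. The cause was not tested. Without doublets Cd74 averaged 477 CPM in nmSC of NOD-ICAM. Unthinned, the mean share with a Cd74 UMI in NOD-ICAM was 59.08% in mySC, 52.03% in CD4 and 100% in BC.

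Whether replicate numbers pair the samples could not be settled. Deviations of samples numbered 1 correlated at 0.109 and of those numbered 2 at -0.02 over the 2101 genes tested in nmSC. With 2 control samples the deviations of 1 mirror those of the other, so these values cannot exclude a pairing. With the replicate block the called genes numbered 1 in nmSC, 3 in mySC, 0 in EC, 3 in MC and 0 in CD4. Few cells limit mySC and EC of NOD-ICAM and of NOD control 1, where 5 and 2 of the 10 genes passed the low count filter.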
